A study of Mus musculus with 6 samples.

Results

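A set of 10 genes of the Notch pathway were followed through the cells sorted from mouse amygdala, namely the receptors Notch1, Notch2 and Notch3, the ligands Jag1 and Dll1, and the nuclear effectors Hes1, Hes5, Hes6, Hey1 and Heyl. They are 10 of the 32285 genes measured by single-cell RNA sequencing (scRNA-seq). They were taken by name and not by a cut on a measured value, but with earlier results of these data known. The cells came from young adult male wild-type C57BL/6N mice and were sorted with ACSA2, an antibody to the sodium pump subunit ATP1B2 that marks astrocytes, alongside antibodies to CD11b, CD45 and O1. The study asked how fear learning and its recall change astrocytes. Mice explored the conditioning chamber without shock (NoFC), were shocked there (FC), were shocked and left in the home cage on the next day (NoFR), or were shocked and returned to the chamber on the next day (FR). The labels give 90 min from the start of the behavioural session to anaesthesia for all samples, although the NoFR mice had no session on their last day, and all tissue was handled in blockers of transcription and translation. Cells of 16 mice, 4 in each group, were marked with hashtag antibodies and pooled into 3 libraries of 5287, 3631 and 4628 barcodes, with between 31700569 and 42350059 unique molecular identifiers (UMIs) per library.

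Notch receptors are membrane proteins that are cut when a ligand on a neighbouring cell binds them, and the freed inner part enters the nucleus, joins the DNA-binding protein RBPJ and switches on genes of the Hes and Hey families of transcriptional repressors. In brain vessels, NOTCH3 is the receptor of the mural cells, the pericytes and smooth muscle cells that wrap the vessel wall, and it is the gene mutated in a hereditary small vessel disease. In the neural lineage, Hes1 and Hes5 keep stem cells undifferentiated and are also active in astrocytes, whereas Dll1 is shown to the neighbours by progenitors that begin to differentiate.

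The promoters that could be read bear on this wiring, because RBPJ is known to bind the letters TGGGAA. RefSeq promoter windows of the mouse assembly GRCm38.p6, running from 250 bases before to 50 bases after a transcription start, were on hand for 7 of the 10 members, 9 windows in all. Hes1, Hey1 and Heyl had none in the table used. Hes5 is shown because its window alone among the 9 held the RBPJ letters. Notch3 is shown as the receptor with the widest spread between cell classes, and Dll1 as a ligand highest in the Sox11 cells described further on. Capitals mark TGGGAA or its reverse complement in Hes5, and the letters CACNAG, the N-box that Hes proteins bind, or their reverse complement in Notch3 and Dll1.
Hes5, chr4:154960673-154960972, plus strand: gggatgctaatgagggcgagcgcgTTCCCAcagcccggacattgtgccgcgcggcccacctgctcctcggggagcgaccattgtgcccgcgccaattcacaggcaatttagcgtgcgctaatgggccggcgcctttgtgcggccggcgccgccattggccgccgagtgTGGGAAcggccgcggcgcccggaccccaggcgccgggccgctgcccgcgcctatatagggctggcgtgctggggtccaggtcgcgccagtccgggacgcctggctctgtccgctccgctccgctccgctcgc
Notch3, chr17:32166841-32167140, minus strand: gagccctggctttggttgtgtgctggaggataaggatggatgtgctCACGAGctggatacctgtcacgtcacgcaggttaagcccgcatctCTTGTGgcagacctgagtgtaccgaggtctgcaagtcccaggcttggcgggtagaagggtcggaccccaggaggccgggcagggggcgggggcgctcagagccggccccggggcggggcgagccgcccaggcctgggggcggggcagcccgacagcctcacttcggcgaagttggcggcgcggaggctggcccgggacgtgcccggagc
Dll1, chr17:15376883-15377182, minus strand: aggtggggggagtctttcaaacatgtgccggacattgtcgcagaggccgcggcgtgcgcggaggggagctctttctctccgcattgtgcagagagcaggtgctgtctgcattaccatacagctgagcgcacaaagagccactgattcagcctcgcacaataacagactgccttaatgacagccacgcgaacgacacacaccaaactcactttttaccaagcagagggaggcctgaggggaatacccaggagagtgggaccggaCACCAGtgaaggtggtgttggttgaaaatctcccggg
In the Hes5 window the letters stood 226 bases upstream of the start, on the reverse strand, and again 82 bases upstream. Of 32851 mouse promoter windows of the same length, 25.6% held TGGGAA on either strand at least once and 3.79% held it 2 or more times. The N-box letters were in 42.5% of windows and the E-box CACGTG, also bound by Hes and Hey proteins, in 7.15%. An N-box as in the Notch3 window or the Dll1 window shown is thus common, and none of the 9 windows held CACGTG. Dll1 had another window, chr17:15375774-15376073, which held no N-box. A match of letters is a description and not a bound site.

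In the annotation of the GRCm38 build (GENCODE vM21), Notch1 lies at chr2:26457903-26516663, Notch2 at chr3:98013527-98150361 and Notch3 at chr17:32120820-32166852. Jag1 lies at chr2:137081456-137116644 and Dll1 at chr17:15367354-15376872. The effectors other than Heyl are short genes by comparison, with Hes1 at chr16:30064384-30067796, Hes5 at chr4:154960923-154962371, Hes6 at chr1:91411483-91414038 and Hey1 at chr3:8663359-8667256. Heyl, at chr4:123233556-123249875, spans 16.3 kb, more than the 9.52 kb of Dll1. All 10 are annotated as protein-coding.

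Cells were put into 4 classes by counts of a few marker genes. Astrocytes were the 8757 barcodes with at least 20 UMIs of the glutamate transporters Slc1a2 and Slc1a3 together and at most 3 UMIs of the mural genes Vtn and Rgs5. Pericytes were the 2240 barcodes with at least 10 Vtn and Rgs5 UMIs, at most 5 Slc1a2 and Slc1a3 UMIs and fewer than 5 of Acta2, the smooth muscle actin. The Acta2 cells were the 22 barcodes with at least 5 Acta2 UMIs, and the Sox11 cells the 115 barcodes with at least 3 UMIs of Sox11, a transcription factor of young neural cells. The labels call every cell an astrocyte. Markers not used by the gates went with the class names for pericytes, whose 7 pericyte markers summed to between 11823 and 11983 CPM (a gene's UMIs per 1000000 UMIs of the class in a library) against between 138 and 152 CPM in astrocytes, and for astrocytes, whose 8 markers summed to between 8684 and 8736 CPM against between 732 and 804 CPM in pericytes, where nearly all of it was Atp1b2 and Gfap was at 0. In the Acta2 cells the 5 smooth muscle markers summed to between 5080 and 7846 CPM, above the 1956 to 2017 CPM of pericytes. Of these markers, Cnn1 was at 0 in the Acta2 cells. It was hardly counted in any class, with 1 UMI in all pericytes and 0 in astrocytes and Sox11 cells. The 7 pericyte markers still summed to between 1908 and 5821 CPM in the Acta2 cells, so their markers do not set them fully apart from pericytes. Of the Sox11 cells, 111 also met the astrocyte gate and were counted in both classes, their astrocyte markers summed to between 2468 and 4451 CPM, and their cycling markers to between 941 and 1869 CPM, so these cells are called by their gate only. Median UMIs per cell were 9667 to 10281 in astrocytes, 4827 to 5202 in pericytes and 16941 to 24442 in Sox11 cells, and a fixed number of Sox11 UMIs is reached more easily in deep cells.

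**Figure D1:**
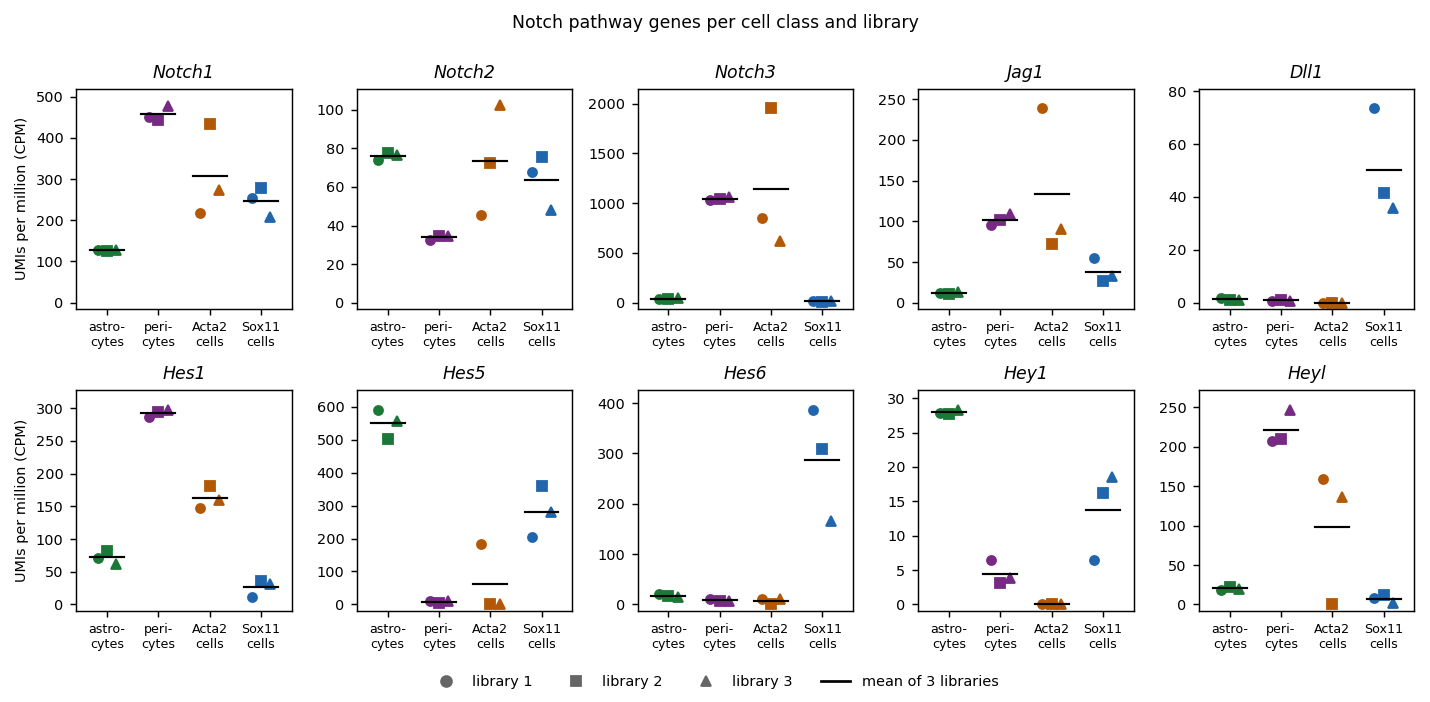
Level of each of the 10 genes (vertical axis, CPM, from 0) in the 4 cell classes, with a point for each of the 3 libraries and a bar at their mean. Notch3, Jag1, Hes1 and Heyl were higher in every pericyte sum than in every astrocyte sum, Hes5, Hey1 and Notch2 lower, and Dll1 and Hes6 stood highest in the Sox11 cells.

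Notch3, Jag1, Heyl, Hes1 and Notch1 were higher in pericytes, and Hes5, Hey1 and Notch2 in astrocytes. Hes6 was also higher in astrocytes, in sums that counted the Sox11 cells among them. Of the Hes6 UMIs in the astrocyte gate, 44.0% lay in barcodes that were also Sox11 cells. Between pericytes and astrocytes, 9 of the 10 members passed the test, 5 higher and 4 lower in pericytes (edgeR's quasi-likelihood test on UMI sums per class and library, adjusted p under 0.05). The background was high, since 77.5% of the 12935 genes tested were called, 36.2% as higher and 41.3% as lower in pericytes, so the count itself sets the members little apart. Without TMM factors (scaling by trimmed means, used in the fit), the share of calls that were higher in pericytes moved from 46.7% to 57.5%. The size of the differences was larger than for most genes, with a median absolute log2 fold change of 2.30 for the members and 0.81 for all genes. Levels are given in CPM, whereas log2 fold changes come from the fit, which applies TMM. Levels of different genes are not compared. The 6 endothelial markers summed to between 153 and 160 CPM in pericytes and between 1.29 and 5.70 CPM in astrocytes. Nearly all of the pericyte sum was Flt1 and Kdr, at 132.5 and 16.5 CPM on average. Cldn5, Pecam1, Ly6c1 and Cdh5 averaged 5.47, 1.32, 0.820 and 0.181 CPM there, with Cldn5 mostly in library 3. The part of endothelial RNA in the pericyte values was not tested.

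Among the receptors, Notch3 separated the classes most. It stood at 1029, 1041 and 1063 CPM in the pericytes of libraries 1, 2 and 3, and at 38.1, 38.8 and 44.5 CPM in the astrocytes. All pericyte sums lay far above all astrocyte sums, and the fitted log2 fold change was 4.44 (SE 0.19, adjusted p = 2.7e-24). With cells thinned to 3000 UMIs, which 2083 of the 2240 pericytes and 8216 of the 8757 astrocytes reached, shallower cells being left out, 90.6% ± 0.33 of pericytes and 10.9% ± 0.36 of astrocytes held a Notch3 UMI (SD, n = 3 libraries). Unthinned, the shares were 94.6% and 28.8%.

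Notch1, the receptor of neural stem cells and endothelium, was found in both classes. Its levels were 451, 443 and 477 CPM in pericytes and 127, 125 and 128 CPM in astrocytes, with no overlap and a log2 fold change of 1.60 (SE 0.13, adjusted p = 8.5e-15). Notch2, a receptor with a closely related protein, ran the other way. It stood at 32.7, 34.5 and 34.5 CPM in pericytes against 73.8, 77.8 and 76.8 CPM in astrocytes, a log2 fold change of −1.42 (SE 0.11, adjusted p = 8.8e-16). At 3000 UMIs per cell, Notch1 was seen in 72.4% of pericytes and 29.9% of astrocytes, and Notch2 in 9.86% and 19.5%.

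The ligands were low in astrocytes. Jag1, a ligand of the Serrate type that is known from vessel walls, was measured at 95.2, 102 and 110 CPM in pericytes and at 12.3, 11.1 and 13.2 CPM in astrocytes, with a log2 fold change of 2.82 (SE 0.11, adjusted p = 3.6e-23). Dll1, a ligand of the Delta type, gave only 10 UMIs in all pericytes and 124 in all astrocytes. Its log2 fold change was −0.85 (SE 0.49, adjusted p = 0.12) and did not pass the test. Of those 124 UMIs, 116 lay in barcodes that were also Sox11 cells, and with these left out of the astrocytes the direction turned, to a log2 fold change of 2.81 (adjusted p = 0.0019), on 8 remaining astrocyte UMIs.

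The effectors split between the classes, and the paralogues did so in opposite directions. Hes1, a repressor that cycles in progenitors and answers Notch in many tissues, stood at 286, 293 and 297 CPM in pericytes and at 71.6, 82.3 and 62.2 CPM in astrocytes (log2 fold change 1.78, SE 0.11, adjusted p = 4.0e-18). Heyl, a Hey-family repressor known from smooth muscle, stood at 207, 210 and 247 CPM in pericytes and at 18.5, 22.4 and 20.0 CPM in astrocytes (log2 fold change 3.19, SE 0.11, adjusted p = 4.5e-19). Both were thus higher in every pericyte sum.

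Hes5, the effector most closely tied to the neural lineage, showed the reverse. It reached 589, 501 and 556 CPM in astrocytes and only 9.43, 4.56 and 10.1 CPM in pericytes, a log2 fold change of −6.33 (SE 0.38, adjusted p = 4.6e-08). At 3000 UMIs per cell, 65.2% ± 2.0 of astrocytes and 2.56% ± 0.86 of pericytes held a Hes5 UMI. Hey1, a paralogue of Heyl, followed Hes5 in direction and not Heyl, with 27.8, 27.8 and 28.3 CPM in astrocytes and 6.44, 3.13 and 3.80 CPM in pericytes (log2 fold change −2.85, SE 0.20, adjusted p = 2.4e-15). Hes6, which acts against Hes1 and favours differentiation, was at 20.9, 16.2 and 14.2 CPM in astrocytes and 10.1, 7.41 and 6.79 CPM in pericytes (log2 fold change −1.34, SE 0.17, adjusted p = 5.1e-09). Sox11 cells held 53.8, 38.8 and 31.1% of these astrocyte Hes6 UMIs. Without them, astrocytes with an Igfbp2 UMI stood at 10.1, 11.3 and 10.8 CPM and those without at 9.83, 9.63 and 9.69 CPM. In library 1 these Hes6 levels lay near the 10.1 CPM of the pericytes.

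**Figure D2:**
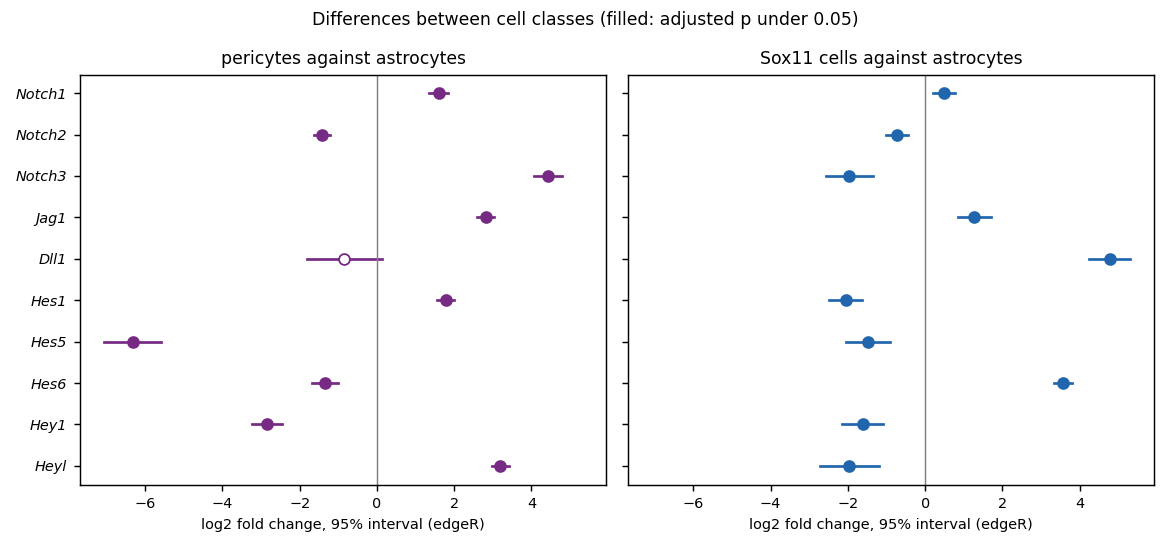
Fitted log2 fold change (horizontal axis) of each gene between pericytes and astrocytes on the left and between Sox11 cells and astrocytes on the right, with 95% intervals as bars and filled points where the adjusted p was under 0.05. On the left, Hes5 at −6.33 and Notch3 at 4.44 are the extremes and Dll1 alone is open. On the right, Dll1 at 4.78 and Hes6 at 3.57 lie highest.

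Free RNA from lysed cells gives UMIs in barcodes of other classes, so low levels were read against markers of the other class. The pericyte level of Hes5 was 0.910 to 1.81% of its astrocyte level over the libraries. For the astrocyte markers Aqp4, Gja1, Aldoc, Slc4a4, F3 and Ntsr2 the same share was 0.647 to 2.25%, for Gfap it was 0, and for Atp1b2, which encodes the antigen used for the sort, it was 78.8 to 85.0%. Hes5 in pericytes thus lay within the range of Aqp4, Gja1, Aldoc, Slc4a4, F3 and Ntsr2. It is not read as expression, and the source of these UMIs was not tested. Notch3 in astrocytes was at 3.70 to 4.19% of its pericyte level. The pericyte markers Kcnj8, Abcc9, Higd1b and Ndufa4l2 were at 0.0224 to 0.0936%, Art3 and Atp13a5 at 0.886 to 1.59% and Pdgfrb at 4.10 to 4.13%. Notch3 thus lay around Pdgfrb and above the other pericyte markers, and the source of its astrocyte UMIs was not tested. Heyl in astrocytes, at 8.12 to 10.7% of its pericyte level, exceeded all 7 markers. Hey1 in pericytes was at 11.3 to 23.2% and Hes6 at 45.6 to 48.4% of the astrocyte level, which for Hes6 included a large part from Sox11 cells.

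Within astrocytes thinned to 3000 UMIs, the variance of Hes5 was 2.27 to 2.61 times its mean in the 3 libraries, where pure counting noise gives a ratio near unity. The ratio was 1.26 to 1.32 for Hes1, 1.15 to 1.65 for Hes6 and 1.03 to 1.19 for the 3 receptors. This ratio grows with the mean at equal relative spread, and Hes5 had the highest mean, so the ratios do not rank the members by their variability.

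The 22 Acta2 cells held 203502 UMIs, so their sums are coarse. Against astrocytes, 6 of the 10 members passed the test, 4 higher and 2 lower, where the background was 25.9% of genes called, 11.3% higher and 14.6% lower. Without TMM the higher share of those calls went from 43.7% to 56.8%. Against pericytes, 2 members passed, both lower, where the background was 8.12%, with 4.16% higher and 3.96% lower.

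Notch3 in the Acta2 cells stood at 854, 1952 and 625 CPM, around the pericyte values and above all astrocyte values. Its log2 fold change was 4.23 (SE 0.24, adjusted p = 2.9e-18) against astrocytes and −0.21 against pericytes, where the 95% interval ran from −0.62 to 0.20 and the test was not passed. That interval uses a spread estimated over all classes together, and the Acta2 values varied far more between libraries than the pericyte values. All 22 cells held a Notch3 UMI. Jag1 was at 239, 72.3 and 90.9 CPM (log2 fold change 3.30 against astrocytes, SE 0.43, adjusted p = 9.1e-08) and Heyl at 159, 0 and 136 CPM (2.35, SE 0.50, adjusted p = 0.00066). Neither passed the test against pericytes, with log2 fold changes of 0.49 for Jag1 (95% interval −0.18 to 1.15) and −0.85 for Heyl (−1.56 to −0.13).

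Notch1 in the Acta2 cells, at 216, 434 and 273 CPM, lay between the astrocyte and pericyte levels, with log2 fold changes of 0.79 against astrocytes (adjusted p = 0.026) and −0.81 against pericytes (SE 0.25, adjusted p = 0.030). Hes1, at 148, 181 and 159 CPM, was below pericytes by a log2 fold change of −0.93 (SE 0.30, adjusted p = 0.045) and above astrocytes by 0.84 without passing the test (adjusted p = 0.077). Both pericyte calls were lost whichever library was left out, with adjusted p between 0.056 and 0.32, so they rest on all 3 libraries together. The call of Notch1 against astrocytes was lost without library 2 (adjusted p = 0.13) or library 3 (adjusted p = 0.23).

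The remaining members were near the limit of counting in these cells. Notch2 stood at 45.6, 72.3 and 102 CPM on 15 UMIs and passed no test against astrocytes or pericytes. Hes6 gave 2 UMIs, and Dll1 and Hey1 gave 0, where a count of 0 over the group allows up to 14.7 CPM. Hey1 was thus at least 1.89-fold higher in astrocytes than in Acta2 cells, by that bound. Hes5 gave 16 UMIs, of which 15 came from a single library 1 barcode that also held 277 Slc1a2 and Slc1a3 UMIs, so its levels of 182, 0 and 0 CPM are those of that barcode (log2 fold change −3.13 against astrocytes, adjusted p = 0.0044). A barcode of library 3 with 41593 UMIs held 1 Vtn or Rgs5 UMI, and without it the Notch1 call against pericytes was lost (log2 fold change −0.70, adjusted p = 0.077).

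In the Sox11 cells the pathway had a profile of its own. Against astrocytes, all 10 members passed the test, 4 higher and 6 lower, where the background was 58% of genes called, 21.1% higher and 36.9% lower. Against pericytes, all 10 passed, 5 higher and 5 lower, where the background was 65.9%, with 33% higher and 32.9% lower. Against Acta2 cells, 6 passed, 2 higher and 4 lower, where the background was 21.7%, with 10.9% higher and 10.8% lower. The median absolute log2 fold change against astrocytes was 1.79 for the members and 0.71 for all genes. TMM scaling moved the median gene of this comparison by 0.47 relative to scaling by library totals, which took the share of calls that were higher from 36.4% to 65.1%, and the directions of all 10 members were the same under both.

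Dll1 was higher in these cells than in the other classes. It stood at 73.4, 41.4 and 35.9 CPM, against 1.86, 0.921 and 1.11 CPM in astrocytes and 0.690, 1.14 and 0.815 CPM in pericytes, with log2 fold changes of 4.78 (SE 0.27, adjusted p = 4.5e-18) and 5.63 (SE 0.38, adjusted p = 3.1e-16). The astrocyte sums included the 111 shared barcodes, and without them the first log2 fold change was 8.43. Dll1 in Sox11 cells was at least 3.67-fold above the Acta2 cells by the limit that a count of 0 allows. Jag1, at 54.9, 27.0 and 33.2 CPM, lay above astrocytes by a log2 fold change of 1.27 (SE 0.22, adjusted p = 4.7e-06) and below pericytes by −1.54 (SE 0.18, adjusted p = 2.1e-09).

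Hes6 was likewise higher in these cells than in each other class. It reached 386, 308 and 166 CPM in the Sox11 cells, above every sum of the other classes, with log2 fold changes of 3.57 (SE 0.12, adjusted p = 1.6e-26) against astrocytes and 4.90 (SE 0.16, adjusted p = 7.1e-27) against pericytes. At 3000 UMIs per cell, 30.4% ± 12.3 of Sox11 cells and 3.11% ± 0.10 of astrocytes held a Hes6 UMI. Hes5 stayed present but was lower than in astrocytes, at 204, 359 and 279 CPM, a log2 fold change of −1.47 (SE 0.29, adjusted p = 0.0014). DESeq2 did not call it (log2 fold change −1.26, adjusted p = 0.14).

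Hes1 was low, at 12.1, 36.0 and 30.6 CPM, with log2 fold changes of −2.05 (SE 0.22, adjusted p = 2.0e-10) against astrocytes and −3.83 (SE 0.20, adjusted p = 6.2e-20) against pericytes. Heyl gave 17 UMIs, at 8.37, 12.6 and 1.33 CPM (log2 fold change −1.96 against astrocytes, SE 0.39, adjusted p = 0.00013). Hey1 gave 30 UMIs, at 6.51, 16.2 and 18.6 CPM (−1.62 against astrocytes, SE 0.27, adjusted p = 5.1e-06). Its difference from pericytes, 1.24 (adjusted p = 0.0087), was lost without library 2 (adjusted p = 0.13) or library 3 (adjusted p = 0.20).

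Of the receptors, Notch3 was low, with 34 UMIs at 14.9, 9.01 and 17.3 CPM, log2 fold changes of −1.97 against astrocytes (SE 0.31, adjusted p = 8.5e-07) and −6.40 against pericytes (SE 0.27, adjusted p = 9.8e-24). Notch1 stood at 253, 277 and 209 CPM, above every astrocyte sum and below every pericyte sum, with log2 fold changes of 0.48 (SE 0.14, adjusted p = 0.0037) and −1.12 (SE 0.14, adjusted p = 5.9e-09). Without library 2 the difference from astrocytes no longer passed (0.39, adjusted p = 0.11). Notch2 stood at 67.9, 75.7 and 47.8 CPM, overlapping the astrocyte values, and its log2 fold change of −0.73 (SE 0.14, adjusted p = 3.1e-05) fell to −0.26 with scaling by library totals (adjusted p = 0.14), so this call depends on the scaling.

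The order of the 4 classes can be given for each member from these fits. Notch3 and Heyl ran from pericytes and Acta2 cells, between which neither passed the test, through astrocytes to Sox11 cells. Notch1 ran from pericytes through Acta2 and Sox11 cells to astrocytes, where the Acta2 and Sox11 cells did not differ past the threshold (log2 fold change −0.31, 95% interval −0.84 to 0.22). Hes1 ran from pericytes through Acta2 cells and astrocytes, which did not differ past the threshold, to Sox11 cells. For Jag1, Acta2 cells and pericytes came first, then Sox11 cells, then astrocytes. For Hes5 the order was astrocytes, Sox11 cells, then Acta2 cells and pericytes. Sox11 and Acta2 cells did not differ past the threshold (adjusted p = 0.16). Of the 16 Hes5 UMIs of the Acta2 cells, 15 came from 1 barcode with 277 Slc1a2 and Slc1a3 UMIs, so their place rests on it. The pericyte level of Hes5 is not read as expression. Notch2 was highest in astrocytes and lowest in pericytes, and the Acta2 cells differed from none of the other classes past the threshold. Dll1 and Hes6 were highest in Sox11 cells, and Hey1 in astrocytes.

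**Figure D3:**
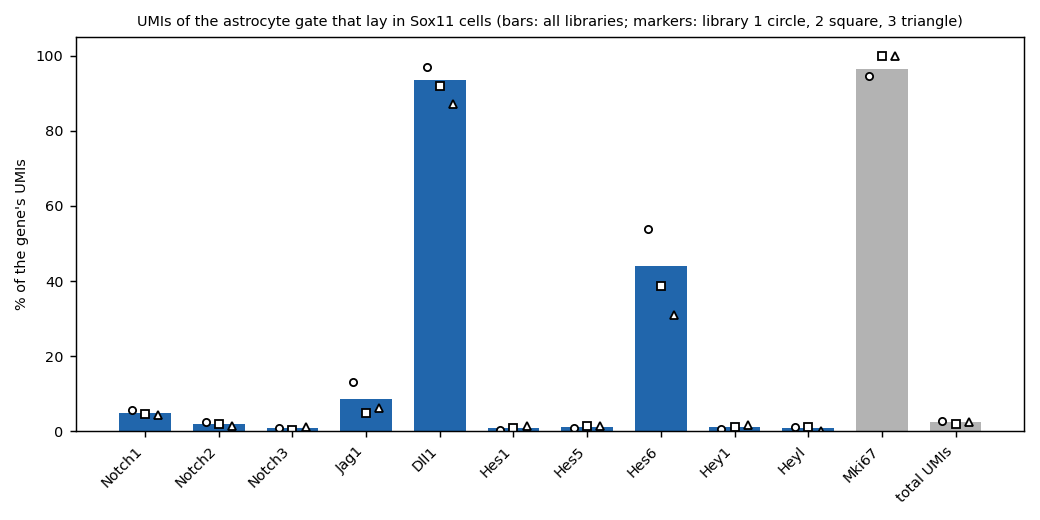
Share of each gene's UMIs in the astrocyte gate that lay in Sox11 cells (vertical axis, percent, from 0), as bars over all libraries and markers per library, with the proliferation gene Mki67 and all UMIs for reference in grey. Dll1 at 93.5%, Hes6 at 44.0% and Mki67 at 96.6% stand above the 2.54% of all UMIs.

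Because most Sox11 cells met the astrocyte gate, they carried a part of what the astrocyte sums show. Sox11 cells made up 111 of the 8757 gated astrocytes and 2.54% of their UMIs. They held 93.5% of the Dll1 UMIs, 44.0% of the Hes6 UMIs, 8.70% of the Jag1 UMIs and 4.98% of the Notch1 UMIs. For the other 6 members their part was between 0.851% and 2.07%. The Hes6 level of the astrocyte gate is thus in large part that of the Sox11 cells, and in sums of this kind more cells of a type and more RNA per cell cannot be told apart.

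Inside the Sox11 class, the 38 cells with a UMI of Mki67, a gene of dividing cells, and the 77 without had different Notch profiles, given here as pooled levels with no test. The cells with Mki67 were deeper, with a median of 23266 to 35831 UMIs per library against 13801 to 17342. A single Mki67 UMI is reached more easily in deep cells. Hes6 was at 481 CPM in the cells with Mki67 and 127 CPM in those without, and Dll1 at 83.4 and 26.8 CPM. Notch1 was at 286 and 206 CPM and Jag1 at 59.1 and 25.2 CPM, though in library 2 Jag1 was at 29.2 and 25.4 CPM. Hes5 went the other way, with 86.0 CPM in the cells with Mki67 and 429 CPM in those without, as did Hes1 with 4.35 and 41.4 CPM. The astrocyte gene Aldoc was at 30.4 and 1310 CPM, so the cells without Mki67 carried far more astrocyte RNA.

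Other genes of the pathway were counted over a list of 51, of which 44 were tested. Between pericytes and astrocytes 32 of the 44 were called, 19 higher and 13 lower, a share of 72.7% that lies below the 77.5% of all genes. Those with the largest differences were lower in pericytes, namely Dner, a membrane protein described as a non-canonical Notch ligand (149.6, 147.7 and 152.6 CPM in astrocytes, 0.690, 1.42 and 1.36 CPM in pericytes, log2 fold change −7.29), Id2 (−6.97) and Id4 (−6.27), which block helix-loop-helix factors, and Dtx1, a Deltex ubiquitin ligase (−6.09). Dner, Id2, Id4 and Dtx1 thus had the direction of Hes5, while most of the called genes had the other.

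In Acta2 cells 12 of the 44 were called against astrocytes, 3 higher and 9 lower, and 3 against pericytes, all lower. These shares of 27.3% and 6.82% lie near the 25.9% and 8.12% of all genes. Against astrocytes, Dner was at 0 UMIs, Neurl1b, a ubiquitin ligase acting on Delta ligands, was higher (log2 fold change 5.04 on 9 UMIs), and Bhlhe40 (−4.17) and Id2 (−4.10) were lower. Against pericytes, Dtx4 (−3.74), Maml2, a coactivator of the Notch complex (−1.66), and Dtx3 (−1.35) were lower.

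In Sox11 cells 29 of the 44 were called against astrocytes, 10 higher and 19 lower, 27 against pericytes, 12 higher and 15 lower, and 8 against Acta2 cells, 4 higher and 4 lower. The shares were 65.9%, 61.4% and 18.2%, where those of all genes were 58%, 65.9% and 21.7%, so the counts do not set the list apart. The 4 largest differences from astrocytes were all higher in Sox11 cells. Dll4, a Delta ligand, stood at 25.1, 32.4 and 15.9 CPM (log2 fold change 4.75, SE 0.37), and Dll3, a Delta protein that acts within its own cell, at 29.8, 27.0 and 41.2 CPM (4.67, SE 0.32). Mfng, a Fringe enzyme that adds sugars to Notch, stood at 12.1, 16.2 and 15.9 CPM (4.67, SE 0.45), and Neurl1b at 49.3, 39.6 and 19.9 CPM (4.59, SE 0.32). Against pericytes, Mfng had 0 UMIs in pericytes, and Dll3 (6.65), Dner (6.28) and Id2 (5.48) were higher. Against Acta2 cells, Dner and Dll3, both at 0 UMIs there, and Id4 (2.25) were higher, and Hey2, the third Hey gene, was lower (−4.45, SE 0.48).

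Within astrocytes, effectors differed between cells split by Agt, the gene of angiotensinogen, and Igfbp2, which encodes an IGF-binding protein. In each library the tertile of astrocytes with the highest Agt per UMI was compared with the lowest. Of the members, 6 passed the test, 4 higher and 2 lower in Agt-high cells, where the background was 29.9% of genes, 14.2% higher and 15.8% lower. Heyl rose most, from 11.2, 15.1 and 12.1 CPM in Agt-low to 29.3, 35.0 and 30.3 CPM in Agt-high astrocytes (log2 fold change 1.33, SE 0.10, adjusted p = 2.0e-15). Every Agt-high value lay above every Agt-low value. Hes1 stood at 77.0, 94.5 and 79.5 CPM against 64.3, 64.5 and 46.0 CPM (0.54, SE 0.08, adjusted p = 2.4e-07), and Hes5 at 613, 538 and 595 CPM against 525, 422 and 473 CPM (0.32, SE 0.07, adjusted p = 0.00023). The Hes5 call was lost without library 2 (adjusted p = 0.071). Notch3 also passed (0.32, SE 0.09, adjusted p = 0.0052), but not without library 1, where its log2 fold change was 0.17 (adjusted p = 0.19).

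Hes6 and Dll1 were lower in Agt-high cells, with log2 fold changes of −1.66 and −4.35. These 2 differences were not seen without the Sox11 cells. Mki67 stood at 0.0302 CPM in Agt-high and 35.6 CPM in Agt-low astrocytes on average. With Sox11 cells left out Hes6 was at 9.35, 8.97 and 10.6 CPM in Agt-high and 10.3, 9.13 and 9.18 CPM in Agt-low cells (log2 fold change −0.03, adjusted p = 0.91). Dll1 then had 5 and 2 UMIs. Without the Sox11 cells, Heyl (1.22), Hes1 (0.41) and Hes5 (0.21) were still higher in Agt-high cells, and Notch3 no longer passed (0.20, adjusted p = 0.053).

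Astrocytes with at least 1 Igfbp2 UMI were compared with those without, and 8 members passed, 3 higher and 5 lower, where the background was 37.5% of genes, 18.8% higher and 18.6% lower. Hey1 stood at 33.5, 34.1 and 35.2 CPM in Igfbp2-positive and 24.9, 24.8 and 24.8 CPM in Igfbp2-negative cells (log2 fold change 0.47, SE 0.06, adjusted p = 2.8e-06), Hes5 at 671, 581 and 658 CPM against 547, 464 and 506 CPM (0.34, SE 0.03, adjusted p = 3.1e-10). Hes1 was higher too (0.31, SE 0.05, adjusted p = 1.3e-05). Heyl ran against Hey1, at 13.1, 15.5 and 14.7 CPM in Igfbp2-positive and 21.4, 25.6 and 22.7 CPM in Igfbp2-negative cells (−0.68, SE 0.08, adjusted p = 5.2e-07). Agt itself averaged 134 CPM in Igfbp2-positive and 378 CPM in Igfbp2-negative cells, so the Agt and Igfbp2 splits are not independent.

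Notch3 (−0.40, SE 0.06) and Notch2 (−0.26, SE 0.05) were lower in Igfbp2-positive cells, with adjusted p of 9.6e-06 and 0.00014. Notch1 showed no difference past the threshold in either split, with 95% intervals of −0.14 to 0.14 for Agt and −0.10 to 0.06 for Igfbp2, and Jag1 likewise passed neither. The lower Hes6 (−0.59) and Dll1 (−3.02) of Igfbp2-positive cells were not seen without the Sox11 cells, where Hes6 gave 0.12 (adjusted p = 0.44). Igfbp2-positive cells were deeper, with a median of 11654 to 12290 UMIs against 8893 to 9651, and with all astrocytes thinned to 5000 UMIs Hey1 no longer passed (0.20, adjusted p = 0.17).

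**Figure D4:**
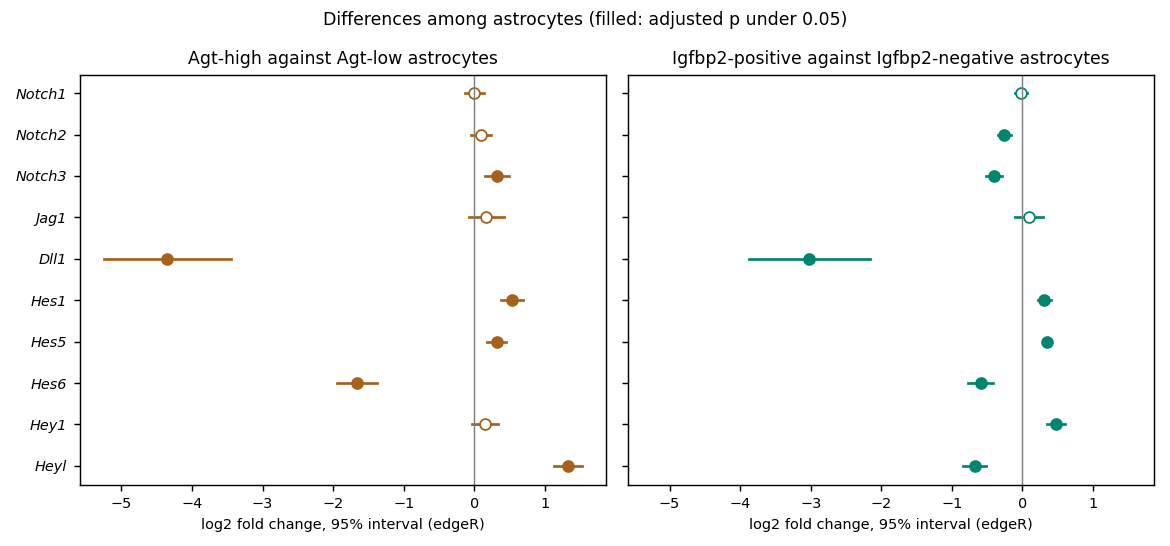
Fitted log2 fold change (horizontal axis) of each gene between Agt-high and Agt-low astrocytes on the left and between Igfbp2-positive and Igfbp2-negative astrocytes on the right, with 95% intervals as bars and filled points where the adjusted p was under 0.05. Heyl lies at 1.33 on the left and at −0.68 on the right, and the low Hes6 and Dll1 values include the Sox11 cells. The Agt and Igfbp2 splits are not independent.

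The behavioural groups were compared over mice, with cells assigned by hashtag. This left 1538 astrocytes, between 20 and 251 in a mouse, and 909 pericytes, between 31 and 98 in a mouse. In astrocytes, 9 members passed the filter on low counts (all but Dll1), and in pericytes 6 did (the receptors, Jag1, Hes1 and Heyl). None was called in any of the 6 pairs of groups in either class (edgeR's quasi-likelihood test with library as a term, adjusted p under 0.05). The background was as low, with 0% of 9672 genes called in all 6 astrocyte comparisons. Of 6156 genes in pericytes it was 0% for FC against NoFC and FR against FC, 1.17% for NoFR against NoFC, 0.487% for NoFR against FC and 0.0975% for both FR against NoFC and FR against NoFR. Between 230 and 587 genes had an unadjusted p under 0.05 in a comparison, and at most 1 member did.

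Receptor levels overlapped in every pair of groups. Notch1 in astrocytes ranged from 113 to 157 CPM over the 16 mice with a median of 131, and Notch3 in pericytes from 897 to 1182 CPM with a median of 1011. Notch1 in pericytes, at 567, 436, 551 and 532 CPM in NoFR and 380, 480, 435 and 407 CPM in NoFC, had the smallest unadjusted p of a member in edgeR, but its log2 fold change of 0.33 (SE 0.12) did not pass the test (adjusted p = 0.31).

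Exact 2-sided permutation tests of the mean CPM over 4 against 4 mice were run for all 10 members, 2 classes and 6 pairs of groups, 120 in all. Of these, 5 reached 0.0286, the smallest p that 4 against 4 mice can give, with groups that did not overlap, and each had an adjusted p of 0.623. They are therefore reported as values that did not survive the correction. Without any difference between groups or between libraries, 4 against 4 mice separate fully with a probability of 0.0286. The groups were spread unequally over the libraries, so this rate is only a guide, and the share over all genes was not computed.

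Jag1 in astrocytes accounted for 2 of the 5. It stood at 16.6, 13.8, 17.1 and 17.8 CPM in the FR mice, at 10.8, 10.8, 10.8 and 7.90 CPM in FC and at 13.7, 10.8, 12.8 and 7.34 CPM in NoFR. The NoFC mice, at 14.3, 10.7, 6.27 and 11.5 CPM, overlapped the FR mice. In edgeR with library as a term, FR against FC gave a log2 fold change of 0.67 (SE 0.28, unadjusted p = 0.024, adjusted p = 1.0). Library 1 held mice of all groups. Within it, the FR mice at 16.6 and 13.8 CPM were above the FC mice at 10.8 and 10.8 CPM and the NoFR mice at 13.7 and 10.8 CPM. The NoFC mice of library 1, at 14.3 and 10.7 CPM, overlapped the FR mice. The 13.8 CPM of FR mouse 2 rested on 7 Jag1 UMIs and the 13.7 CPM of NoFR mouse 1 on 11. Sox11 cells carried 26 of the 218 Jag1 UMIs, and without them FR stayed at p = 0.0286 against FC in the exact test but not against NoFR (p = 0.0571). Against NoFC the exact p went the other way, from 0.0571 with the Sox11 cells to 0.0286 without them (mean 14.9 CPM in FR and 8.19 CPM in NoFC).

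Hes5 in astrocytes was higher in all NoFR mice (523, 596, 541 and 589 CPM) and all FR mice (612, 538, 528 and 536 CPM) than in all FC mice (513, 519, 448 and 508 CPM). With library as a term the log2 fold changes were only 0.10 and 0.12 (unadjusted p = 0.50 and 0.35). With strict hashtag calls the direction turned, to −1.74 in FR against FC, which then passed the test (adjusted p = 0.012), and to −0.14 in NoFR against FC. That fit rested on fewer data, with 3069 genes tested in place of 9672 and no NoFC mice. With the main hashtag calls, the NoFC mice spread from 288 to 587 CPM and overlapped the FC, NoFR and FR mice. Heyl in pericytes was higher in the NoFR mice (218, 215, 244 and 229 CPM) than in the FC mice (195, 204, 172 and 171 CPM), and edgeR gave 0.14 (unadjusted p = 0.43). Library 2 held no NoFR mouse and library 3 no FC mouse, so library and group are partly bound together.

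**Figure D5:**
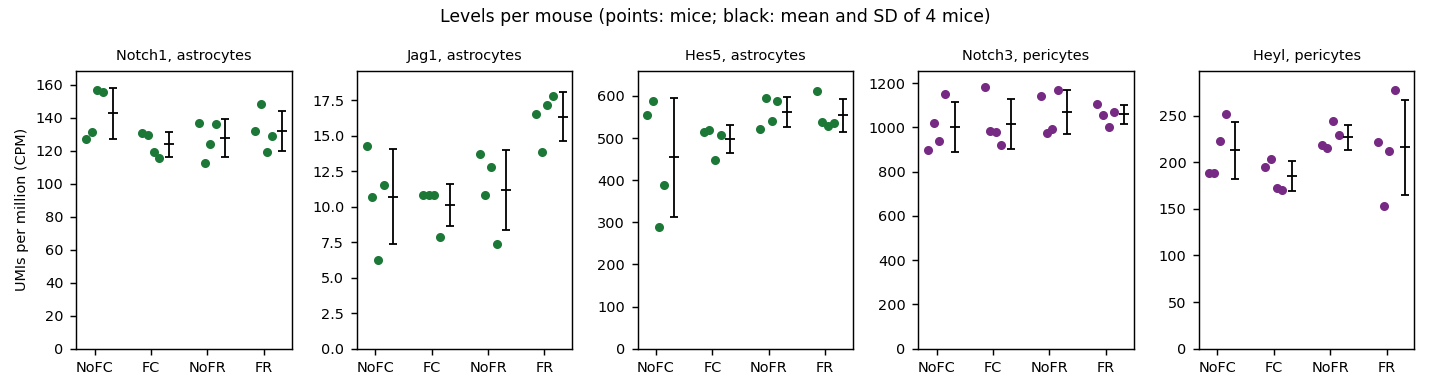
Level per mouse (vertical axis, CPM, from 0) of Notch1, Jag1 and Hes5 in astrocytes and of Notch3 and Heyl in pericytes, with a point per mouse, and the mean and SD of the 4 mice in black. For Jag1 the FR mice lie between 13.8 and 17.8 CPM and all FC and NoFR mice below them, a difference that did not survive correction over 120 tests.

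Hes6 in the astrocytes of some mice came largely from Sox11 cells. FR mouse 1 had 9 Sox11 cells among 219 astrocytes and a Hes6 level of 63.7 CPM, and 126 of its 150 Hes6 UMIs lay in those 9 cells. NoFC mouse 3 had 1 Sox11 cell among 20 and 90.9 CPM, which was 3.46 CPM without it. In NoFC mouse 2, the 2 Sox11 cells held 0 of its 14 Hes6 UMIs. The 1 Sox11 cell in each of FC mouse 4, FR mouse 3, NoFR mouse 3 and FR mouse 4 also held 0. FC mouse 1 had 4 Sox11 cells and a Hes6 level of 13.7 CPM. Over the 16 mice, Hes6 ran from 5.55 to 90.9 CPM with the Sox11 cells and from 3.46 to 20.0 CPM without. Of the 34 Dll1 UMIs in the astrocytes of these mice, 33 lay in Sox11 cells. Of the 51 other pathway genes, 37 were tested in astrocytes and 28 in pericytes, and none was called in any pair of groups.

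Genes with the most similar pattern over the 12 sums of class and library were named by Pearson's r of log2(CPM + 1), a description that the class differences drive. For Notch3 they were Axl (r = 0.996), Gucy1a1 (0.99) and Gm10687 (0.99), for Notch1 Grb10 (0.98), Gnai2 (0.96) and Mtap (0.96), and for Notch2 Usp2 (0.96), Slc22a17 (0.95) and Gapdh (0.92). For Jag1 they were Rcn3 (0.98), Polr2c (0.98) and Abcg2 (0.98). Dll1 was closest to Fanca, Foxm1 and Sgo1 (all 1.00 when rounded), Foxm1 and Sgo1 being genes of cell division. For Hes5 they were Kirrel3, S1pr1 and Scg3 (all 1.00 when rounded), and for Hes1 Tnfsf12 (0.98), 9530026P05Rik (0.98) and Sqstm1 (0.97). For Hes6 they were Tbc1d31, Ntng2 and Hist1h4h (all 0.96), for Hey1 Gm26703, Rtp4 and Acss3 (all 0.99), and for Heyl Zbtb11os1 (0.99), Pcdh19 (0.97) and Il17rc (0.97). Among the members themselves, Hes6 and Dll1 were most alike (r = 0.92), followed by Notch3 and Hes1 (r = 0.91), and the most opposed pairs were Jag1 with Hey1 (r = −0.85) and Hes1 with Dll1 (r = −0.85).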

How the data were processed

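Cells of 16 mice in 3 pooled libraries were analysed. The deposited counts are UMIs per gene and barcode that the authors obtained with Cell Ranger and did not normalise. The submitters' processing notes name version 3.0 and build mm10, whereas the matrix headers name cellranger 7.0.0, and the sources do not state whether reads in introns were counted. The 10 members and all lists were chosen with earlier results of these data known.

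UMIs were summed per class and library over all barcodes, 12 sums in all, and fitted with edgeR 4.0.16 in R 4.3.3 (quasi-likelihood test, TMM factors, low-count filter, library as block, Benjamini-Hochberg adjustment over all genes tested, threshold 0.05). The classes shared their libraries, so the pairing comes from the pools. The p-values measure the spread over the 3 libraries that is left after the block, with an estimate that draws partly on all genes. Library 1 held mice of all groups. Classes were not filtered for doublets; HTODemux singlets were an alternative. Libraries shared 8, 7 and 3 barcode sequences, kept as separate cells.

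For mice, barcodes holding 100 genes or more, with mitochondrial UMIs below 6%, were assigned with HTODemux (Seurat 5.3.0, quantile 0.99). Hashtags with under 1000 UMIs in a library were left out, without which the caller failed in library 2. The fit had library as a term, and exact permutation tests used scipy 1.17.1. Shares of cells were compared after thinning to 3000 UMIs. Depth limits the precision, and the limit of 3 UMIs allowed by a count of 0 covers counting error only.

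All 10 members were named. Of a list of 51 other pathway genes, those with the 4 largest called log2 fold changes in each class comparison were named, and for each member the 3 genes with the highest Pearson r. In counts simulated from these libraries, the fit recovered 94.9% of genes changed by a log2 fold of 1 between pericytes and astrocytes (11966 genes fitted), 62% between Acta2 cells and pericytes (11248 genes) and 84.2% in astrocytes of FR against FC mice (9614 genes). Unchanged genes called numbered 2, 9 and 9. The simulation gave all genes a dispersion of 0.02 and changed only genes with an expected mean of at least 10 UMIs. Its shares therefore do not hold for members with wider spread or fewer UMIs. The alternatives were DESeq2 1.42.0, no low-count filter, no TMM, no block, each library or mouse left out, stricter gates, singlets, barcodes in a single class, thinned astrocytes and other hashtag calls. Astrocytes without Sox11 cells and Acta2 cells without 1 barcode were added after seeing the data.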

Additional observations from a re-analysis of the deposited data

Results flagged for a closer look

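Of 77 groups of 4 mice in which a member could be examined, 9 held a mouse set apart from the other 3 by Dixon's test. The chance rate of about 1 in 20 groups holds for continuous values and not for few UMIs. A group with 3 mice at 0 is always flagged, so the 9 groups are not read as an excess. In astrocytes, FC mouse 4 had the lowest Jag1 of its group, 7.9 CPM on 9 UMIs, with the others near 10.8 CPM. NoFR mouse 4 had the lowest Hes1, 49.9 CPM against 69.7 to 72.1 CPM. Hes5 was lowest among FC mice in FC mouse 3, at 448 CPM against 508 to 519 CPM, and highest among FR mice in FR mouse 1, at 612 CPM against 528 to 538 CPM. FR mouse 1 also had the highest Hes6, 63.7 CPM, with all other FR mice lower, down to 5.55 CPM, and the highest Dll1, 2.97 CPM on 7 UMIs with the other FR mice at 0. This mouse held 9 of the 28 Sox11 cells found in the astrocytes of all mice.

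In pericytes the values that stood apart rested on few UMIs. Dll1 in FR mouse 4 was 6.24 CPM on 2 UMIs with the others at 0, Hes5 in FR mouse 2 was 0 among 31 cells, and Hes6 in NoFR mouse 1 was 17.7 CPM on 3 UMIs.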

How the results depend on the processing

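Of 357 recomputed counts, 346 stayed within 1.5 times the reported count. Most of them were for pairs of mouse groups with 0 members called, where a 0 that stayed 0 counted as unchanged. The number of members found in a larger share of pericytes than of astrocytes was also among them. The 346 therefore say little about the class and subset comparisons. For Acta2 cells against pericytes the 2 calls became 0 without TMM, 1 with the replicate block left out, 1 with the filter on genes and mitochondrial UMIs, 1 without the deepest barcode, 4 with barcodes in 2 classes left out, and 0 to 1 when a library was left out. For Sox11 cells against astrocytes the 10 calls became 3 with barcodes in 2 classes left out, since 4 Sox11 cells remained. In astrocytes, strict hashtag calls gave 1 call (Hes5) in FR against FC and 1 in FR against NoFR, on 3 tested members and with no NoFC mice, so pairs with NoFC were not run there.

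Of 738 recomputed log2 fold changes, 685 kept direction and side of the threshold, 45 lost the call and 8 changed sign. Dll1 in pericytes against astrocytes became 2.81 and Hes6 by Igfbp2 became 0.12 without Sox11 cells. Hey1 in Sox11 cells against pericytes became −0.075 with singlets and −0.11 with stricter gates. Notch1 in Sox11 cells against astrocytes became −1.48 with barcodes in 2 classes left out. Hes5 became −1.74 in FR against FC with strict hashtag calls, and in NoFR against FC −0.14 with those and −0.0015 at quantile 0.95. The cause was not tested.

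Without the replicate block the calls numbered 5 in place of 6 for Sox11 against Acta2 cells, 6 in place of 8 by Igfbp2, 1 in place of 2 for Acta2 cells against pericytes, and were the same number in the other 5 class and subset comparisons. With a library left out, counts ran from 4 to 5 for Acta2 cells against astrocytes (6), 9 to 10 for Sox11 cells against astrocytes and against pericytes (10), 5 to 6 for Sox11 against Acta2 cells (6) and by Agt (6), and stayed at 9 for pericytes against astrocytes and 8 by Igfbp2. With each mouse left out, 0 members were called in every pair.

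Over all genes, calls fell from 7508 to 4932 with singlets and 2174 with barcodes in 2 classes left out for Sox11 cells against astrocytes, and with the latter from 8520 to 2105 against pericytes and from 2810 to 898 against Acta2 cells. DESeq2 called 1950 genes by Agt in place of 4097 (2265 with thinned cells) and 2733 by Igfbp2 in place of 5482. Between mice, astrocyte pairs with 0 calls gave up to 15 without the low-count filter and 50 with strict hashtag calls. In pericytes, 72 calls in NoFR against NoFC became as few as 30, 30 in NoFR against FC 9 to 50, 6 in FR against NoFC 0 to 16, 6 in FR against NoFR 0 to 17, and 0 in FC against NoFC and FR against FC up to 2 and 4. Few UMIs limit Dll1, Hey1 and Hes6 in Acta2 cells.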

Other observations

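Other pathway genes were counted between subsets of astrocytes too. Between Agt-high and Agt-low astrocytes, 20 of 44 tested were called, 11 higher and 9 lower, and between Igfbp2-positive and Igfbp2-negative astrocytes 24 of 43, 11 higher and 13 lower. The shares were 45.5% and 55.8%, beside 29.9% and 37.5% of all genes, and the difference from all genes was not tested.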
